A study of Mus musculus with 18 samples.

Results

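The collagen genes of the mouse were followed as targets of miRNAs in keratinocytes, the epithelial cells of the epidermis, grown in culture. The 44 genes are all protein-coding genes of the mm10 RefSeq annotation whose symbol is that of a collagen chain, of 21900 protein-coding genes. A read was counted on one of them when the midpoint of its target lay in that gene and in no other protein-coding gene. By this rule 3030 of 1153545 chimeric reads lay on collagen genes.

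Each chimeric read joins a miRNA to the piece of RNA that Argonaute 2 held beside it, so that it names both partners of a contact (CLEAR-CLIP). Set 1 compared 6 libraries of control keratinocytes that carried only the K14-Cre transgene with 3 libraries of miR-200 double knockout (DKO) keratinocytes. Set 2 compared 3 libraries of cells with an inducible miR-200 construct left without doxycycline (the uninduced control), 3 DKO libraries and 3 libraries of the inducible cells given 3 ug/ml of doxycycline for 24 hours. K14-Cre is a recombinase driven by the keratin 14 promoter, which is active in basal keratinocytes. All cells received 300 mJ/cm2 of ultraviolet light at 254 nm, and no group of doxycycline-treated cells without the construct was among the samples. The files pool the libraries of each group, so each group is 1 pooled sample, no test between groups was possible, and every interval given is a 95% interval for counting error alone.

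Collagens are triple-helical proteins of the extracellular matrix. In skin, keratinocytes make the collagens of the basement membrane zone, among them type IV, type VII, type XVII and type XVIII, whereas dermal fibroblasts make most of the fibrillar types I and III. The miR-29 family is known for pairing with the 3′ untranslated regions of many collagen mRNAs and lowering their output. The miR-200 family is known for keeping epithelial character.

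The mature sequences of the miRNAs on which the collagen results turn were taken from RefSeq (GRCm38.p6) and are shown with the seed, bases 2 to 8, in capitals. The 3 miR-29 members share 1 seed and are shown first, because they took a larger share of collagen reads than of other reads.
miR-29a-3p: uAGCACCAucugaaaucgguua
miR-29b-3p: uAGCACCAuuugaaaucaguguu
miR-29c-3p: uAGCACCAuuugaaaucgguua
The 4 members of the miR-17 seed family that met Col17a1 most often share the next seed.
miR-17-5p: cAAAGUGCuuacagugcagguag
miR-20a-5p: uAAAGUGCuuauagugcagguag
miR-106b-5p: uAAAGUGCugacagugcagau
miR-93-5p: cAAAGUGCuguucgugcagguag
Other miRNAs with many reads on collagens were miR-31-5p and miR-27a-3p. let-7a-5p, with 42 collagen reads, is shown for the let-7 family, which had 185. The miR-200 members with the most reads on collagens were miR-141-3p and miR-200c-3p.
miR-31-5p: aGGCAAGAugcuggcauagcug
let-7a-5p: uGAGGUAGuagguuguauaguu
miR-27a-3p: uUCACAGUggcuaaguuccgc
miR-141-3p: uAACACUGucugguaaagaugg
miR-200c-3p: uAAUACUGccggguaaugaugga
The last 3 sequences belong to names that were frequent in set 1 and met Col18a1 far from its 3′ end.
miR-3473b: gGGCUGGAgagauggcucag
miR-3470b: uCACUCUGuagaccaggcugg
miR-3473d: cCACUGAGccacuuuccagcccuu
Of 220 miRNA names on collagen genes, 172 had a RefSeq sequence, and these names held 88.2% of the collagen reads. Reads were divided between members of a seed family as the authors' files name them. That division is less certain than the family sum where members differ by few bases.

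Collagen reads numbered 437 of 161692 in the set 1 control pool, 117 of 48662 in set 1 DKO, 874 of 314071 in the set 2 uninduced control, 481 of 210003 in set 2 DKO and 1121 of 419117 in the induced pool. Their share was 0.270% (0.246 to 0.297), 0.240% (0.199 to 0.288), 0.278% (0.260 to 0.297), 0.229% (0.209 to 0.250) and 0.267% (0.252 to 0.284) in that order. The 5 shares thus lay close together, with set 2 DKO the lowest. Where the promoter table gave the strand of the gene, 98.7% of 2994 reads lay on that strand. Reads whose position, strand, miRNA and barcode also occurred in another pool of the same set, which was sequenced on the same lane by the deposited read names, made up 4.01% to 17.1% of collagen reads, the highest in set 1 DKO, against 3.63% to 12.5% of reads on other protein-coding genes.

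Reads were concentrated on few collagens. Of the 44 genes, 31 had at least 1 read and 13 had none; 10 had 20 reads or more, 21 had 1 to 19, and 11 were met in all 5 pools. The 6 leading genes, Col18a1, Col17a1, Col7a1, Col4a1, Col4a2 and Col8a1, held 2793 reads, or 92.2% of the total. The 38 others held 237 reads, at most 35 each. The share of a gene among chimeric reads depends on the amount of its RNA, on the miRNAs present and on their ligation, and fewer cells of a type cannot be told apart from less RNA per cell.

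The fibrillar collagens, which form the striated fibrils of connective tissue, had 74 reads on 7 of 11 members. Col1a1, Col1a2 and Col3a1, the main fibrillar chains of the dermis, had no read in the files used here, which allows a share of up to 0.00026% each at 3 reads over all pools. Col24a1 had 25 reads and Col5a1, a chain that regulates fibril diameter, had 23. All 25 reads of Col24a1 belonged to names frequent in set 1, and 24 of them lay at 1 site on 2 distinct positions. Col10a1 was counted at 0 because it lies within another protein-coding gene: 12 reads lying in a collagen and in a second coding gene were left out, and all 12 lay within its span. The other genes without reads were Col16a1, Col26a1, Col28a1, Col5a3, Col6a1, Col6a3, Col6a5, Col8a2 and Col9a2.

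Levels of marker genes of other cells were low as targets. The 10 keratinocyte markers, Col17a1 among them, held 5520 reads, from 0.311% of the set 1 control pool to 0.611% of set 2 DKO. The 10 fibroblast markers held 42 reads on 6 genes, between 0.00310% and 0.00495% of a pool, 22 of them on Pdgfra and 2 on Vim; Dcn, Lum, Dpt and Thy1 were at 0. Endothelial markers held 34 reads and immune markers 3. The 6 melanocyte markers held 64 reads, 54 of them on Mitf, with Dct, Mlana and Tyrp1 at 0; their share ranged from 0.00287% in the uninduced control to 0.0103% in set 1 DKO and was 0.0100% in set 2 DKO. Mitf itself had 19 reads in set 2 DKO and 8 in the uninduced control, a ratio of 3.55 (1.48 to 9.38). The keratinocyte sum was 0.464% in set 1 DKO against 0.311% in its control, and 0.611% in set 2 DKO against 0.522% in the uninduced control. Without Col17a1 these sums were 0.403% against 0.260% and 0.496% against 0.468%, and the median ratio of the 10 genes was 1.63 in set 1 and 1.01 in set 2. The part of the melanocyte and keratinocyte values in the differences below was not tested.

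**Figure D1:**
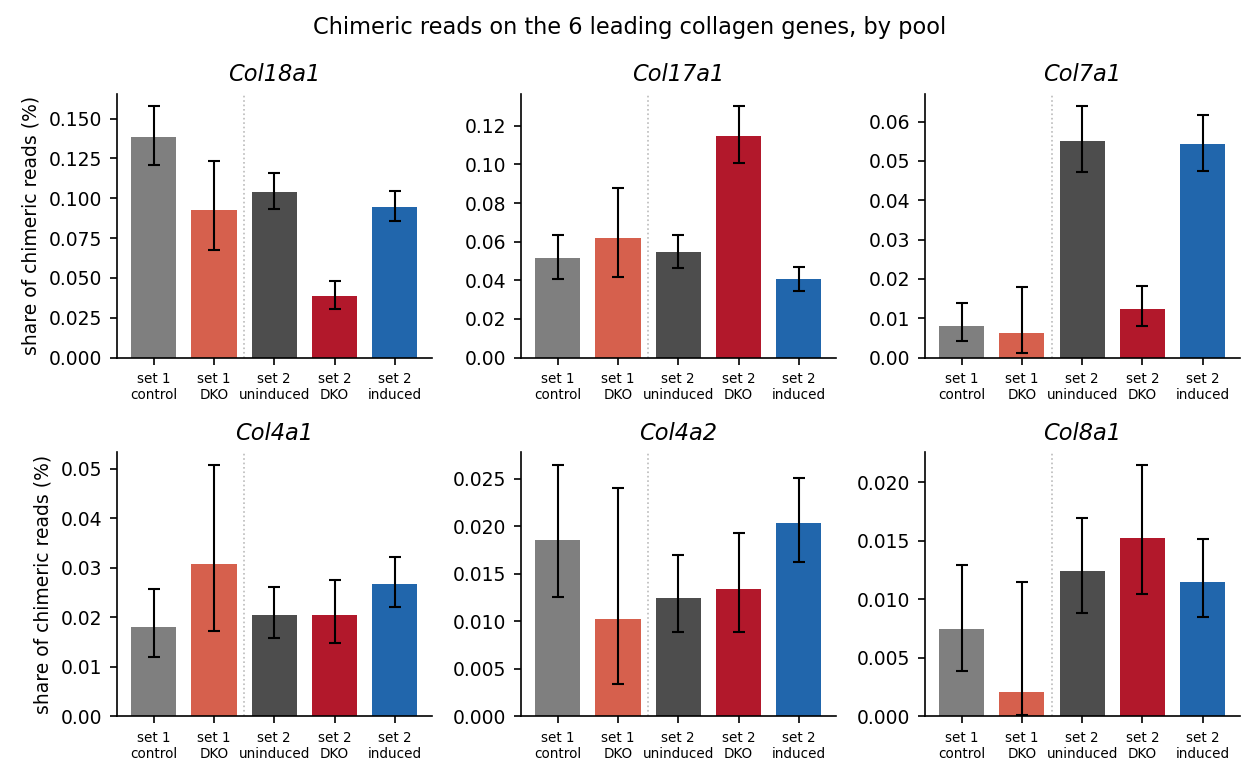
Share of chimeric reads (vertical axis, percent of all chimeric reads of the pool) on the 6 leading collagen genes in the 5 pools; bars are shares and error bars the 95% Clopper-Pearson interval, for counting error alone, and the vertical scales differ. Col18a1 and Col7a1 are low in set 2 DKO, and Col17a1 is high there.

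Col18a1 (chr10:77052178-77166530, minus strand) encodes the multiplexin whose cleaved end is endostatin, a heparan sulfate proteoglycan of basement membranes. It had the most reads of any collagen, 224 in the set 1 control, 45 in set 1 DKO, 327 in the uninduced control, 81 in set 2 DKO and 397 in the induced pool. Those are 0.139%, 0.0925%, 0.104%, 0.0386% and 0.0947% of the pools. Both DKO pools were below their controls, at 0.668 times (0.473 to 0.923) in set 1 and 0.370 times (0.287 to 0.474) in set 2. The induced pool was at 0.910 times the uninduced control (0.784 to 1.06). The 9 names frequent in set 1 gave 337 of the 1074 reads of Col18a1, and without them the set 1 ratio was 0.752 (0.366 to 1.43) while the set 2 ratio was 0.388 (0.294 to 0.505).

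Col17a1 (chr19:47646341-47692042, minus strand) encodes the transmembrane collagen of hemidesmosomes, also called BP180. It had 83 reads in the set 1 control, 30 in set 1 DKO, 171 in the uninduced control, 241 in set 2 DKO and 170 in the induced pool. The shares were 0.0513%, 0.0616%, 0.0544%, 0.115% and 0.0406%, so that DKO stood above the other pools of set 2. The ratio of DKO to control was 2.11 (1.73 to 2.58) in set 2 and 1.20 (0.763 to 1.84) in set 1, and the induced pool was at 0.745 times the uninduced control (0.599 to 0.927). In set 2 the interval of the DKO ratio lay above 1 and that of the induced ratio below it. Both ratios use the same uninduced pool.

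Col7a1 (chr9:108953586-108984875, plus strand) encodes the collagen of the anchoring fibrils that tie the basement membrane to the dermis. It had 13 reads in the set 1 control, 3 in set 1 DKO, 173 in the uninduced control, 26 in set 2 DKO and 227 in the induced pool. Its share was 0.00804% and 0.00616% in set 1, and 0.0551%, 0.0124% and 0.0542% in set 2. Set 2 DKO was at 0.225 times the uninduced control (0.143 to 0.341), or 4.45-fold lower, the largest of the 6 collagens with at least 20 reads over these 2 pools. The induced pool did not differ beyond counting error (0.983, 0.803 to 1.21). With 16 reads, set 1 was under the minimum for a comparison, and since each set was sequenced on 1 lane of its own by the deposited read names, the sets were not compared.

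Col4a1 (chr8:11198423-11312889, minus strand) and Col4a2 (chr8:11312805-11449287, plus strand) lie head to head and encode the chains of the common type IV network of basement membranes. Col4a1 had 29, 15, 64, 43 and 112 reads in the pools in the order above, and Col4a2 had 30, 5, 39, 28 and 85. In set 2 DKO neither differed from the uninduced control beyond counting error (1.00, 0.666 to 1.50, for Col4a1 and 1.07, 0.636 to 1.79, for Col4a2). In the induced pool Col4a2 was at 1.63 times the uninduced control (1.11 to 2.45) and Col4a1 at 1.31 times (0.956 to 1.81). All 6 type IV genes had reads, 521 together, and their sum was at 1.35 times (1.08 to 1.69) in the induced pool. Col4a5, a chain of the network that Col4a6 joins, added 35 reads, 17 of them in the induced pool and 11 in the uninduced control (1.16, 0.512 to 2.74).

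Col8a1 (chr16:57624256-57754737, minus strand) encodes a short-chain collagen of hexagonal networks. It had 12, 1, 39, 32 and 48 reads in the pools in the same order. Its set 2 shares of 0.0124%, 0.0152% and 0.0115% did not differ beyond counting error (DKO 1.23, 0.744 to 2.01; induced 0.922, 0.592 to 1.45). Col20a1, a fibril-associated collagen, had 29 reads, 16 in the induced pool and 8 in the uninduced control.

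**Figure D2:**
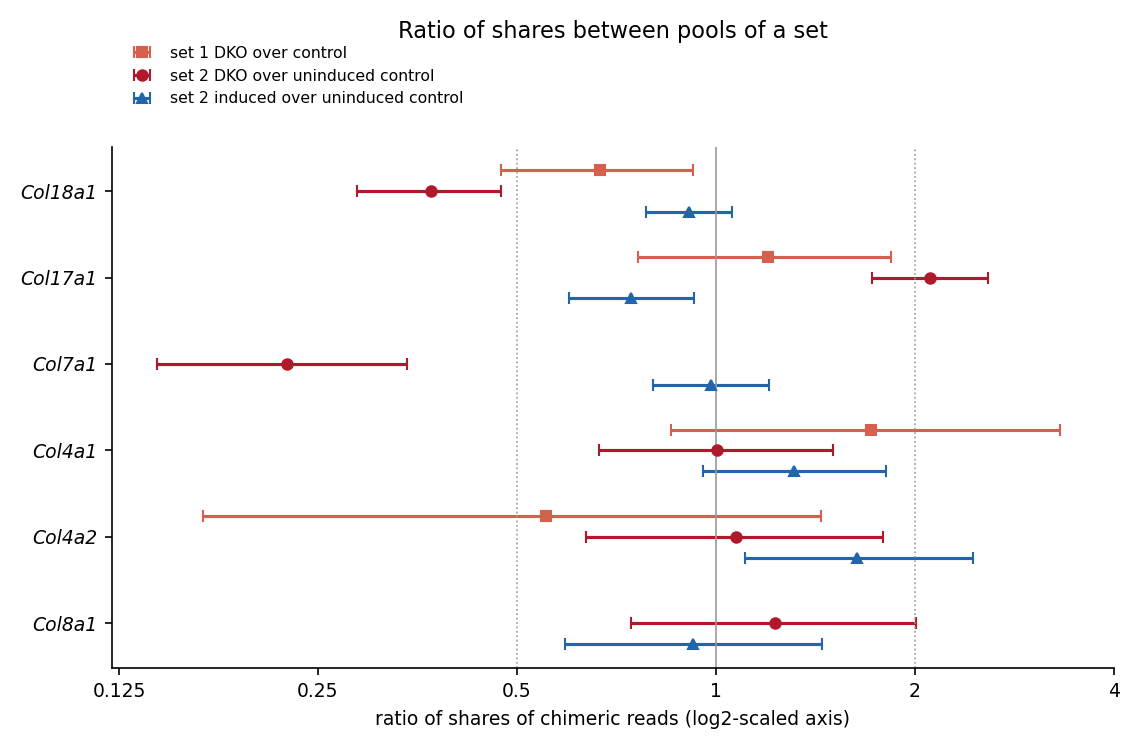
Ratio of shares of chimeric reads between pools of a set (horizontal axis, log2-scaled) for the 6 leading genes; points are ratios, bars the 95% counting interval, dotted lines mark 2-fold, and pairs of pools with under 20 reads are left out. Col18a1 and Col7a1 lie beyond the lower line in set 2 DKO and Col17a1 beyond the upper.

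A gene was counted as higher or lower when its share differed at least 2-fold between pools that held at least 20 reads of it. In set 2 DKO, 1 of 6 collagens so measured was higher (Col17a1) and 2 were lower (Col18a1 and Col7a1). Of 4372 protein-coding genes under the same rule, 9.58% were higher, 11.2% lower and 20.8% either way. The median ratio was 1.04 for the collagens and 1.02 for all genes. In set 1 DKO, 0 of 4 collagens passed the fold, where 8.23% of 2126 genes were higher, 17.6% lower and 25.9% either way, and the medians were 0.934 and 0.883. In the induced pool 0 of 8 passed, where 3.11% of 5205 genes were higher, 2.13% lower and 5.24% either way, and the medians were 1.07 and 1.03. With 4 to 8 collagens measured, these counts cannot be set apart from the background.

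The sum over all collagens was at 0.890 times control in set 1 DKO (0.719 to 1.09), at 0.823 times in set 2 DKO (0.735 to 0.921) and at 0.961 times in the induced pool (0.879 to 1.05). The value for set 2 DKO depended on 3 genes with opposite differences: it was 1.09 (0.959 to 1.25) without Col18a1, on the other side of 1, 0.971 (0.861 to 1.09) without Col7a1 and 0.511 (0.439 to 0.592) without Col17a1. In set 1 DKO it was 1.12 (0.848 to 1.47) without Col18a1, also on the other side of 1, 0.893 (0.720 to 1.10) without Col7a1 and 0.817 (0.638 to 1.04) without Col17a1.

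Reads of miR-29 (miR-29a-3p, miR-29b-3p and miR-29c-3p) made up a larger part of the reads on collagens than of those on other protein-coding genes in set 2. They were 125 of 874 collagen reads in the uninduced control, 14.3% (12.0 to 16.8), against 3.41% on other protein-coding genes, a ratio of 4.19 (3.49 to 5.00). The induced pool gave 178 reads, 15.9% (13.8 to 18.2), against 3.48%, a ratio of 4.57 (3.92 to 5.30). Set 2 DKO gave 20 reads, 4.16% (2.56 to 6.35), against 1.17%, a ratio of 3.56 (2.17 to 5.51). Set 1 gave 9 reads in the control, 2.06% against 0.649%, a ratio of 3.17 (1.44 to 6.05). Set 1 DKO had 2 reads, and its ratio of 2.50 (0.301 to 9.13) was not resolved at this depth. Without Col7a1, the collagen with the most miR-29 reads, the ratio was 3.05 in the uninduced control and 3.57 in the induced pool.

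Seen from the other side, collagens received 1.51% (1.26 to 1.80) of the miR-29 reads on protein-coding genes in the uninduced control and 0.324% (0.302 to 0.349) of those of all other miRNAs. In all pools together miR-29a gave 219 collagen reads, miR-29b 111 and miR-29c 4, on 15 collagen genes, and the opposite 5p arms gave none. In set 2 DKO the share of miR-29 reads on collagens was 0.239 times that of the uninduced control (0.141 to 0.386). On other protein-coding genes it was 0.353 times (0.336 to 0.371), so that the lower value was not limited to collagens and the intervals overlap. Collagen reads of all other miRNAs were at 0.920 times (0.818 to 1.04).

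The miR-29 part differed widely between collagens. In the uninduced control it was 64.1% of 39 reads on Col8a1 (47.2 to 78.8), 30.1% of 173 on Col7a1 (23.3 to 37.5), 20.3% of 64 on Col4a1 (11.3 to 32.2) and 10.3% of 39 on Col4a2 (2.87 to 24.2). The values were 4.59% on Col18a1 (2.59 to 7.45) and 3.51% on Col17a1 (1.30 to 7.48). Over 3095 protein-coding genes with at least 20 reads in that pool the median was 2.33%, and 5.33% of genes reached 10%. Col8a1 ranked 2 among those genes, Col7a1 ranked 17 and Col4a1 ranked 32. Thus 4 of the 6 leading collagens reached 10%, and the 2 with the most reads did not.

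The induced pool gave the same order at its upper end, with 64.6% on Col8a1 (rank 2 of 3815 genes), 29.5% on Col7a1, 25.9% on Col4a2 and 20.5% on Col4a1. Col4a2 had 22 miR-29 reads there and 4 in the uninduced control, a ratio of shares of 4.12 (1.40 to 16.5), while its other reads were at 1.35 times (0.879 to 2.10). The interval of the miR-29 ratio is wide because 1 side rests on 4 reads.

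**Figure D3:**
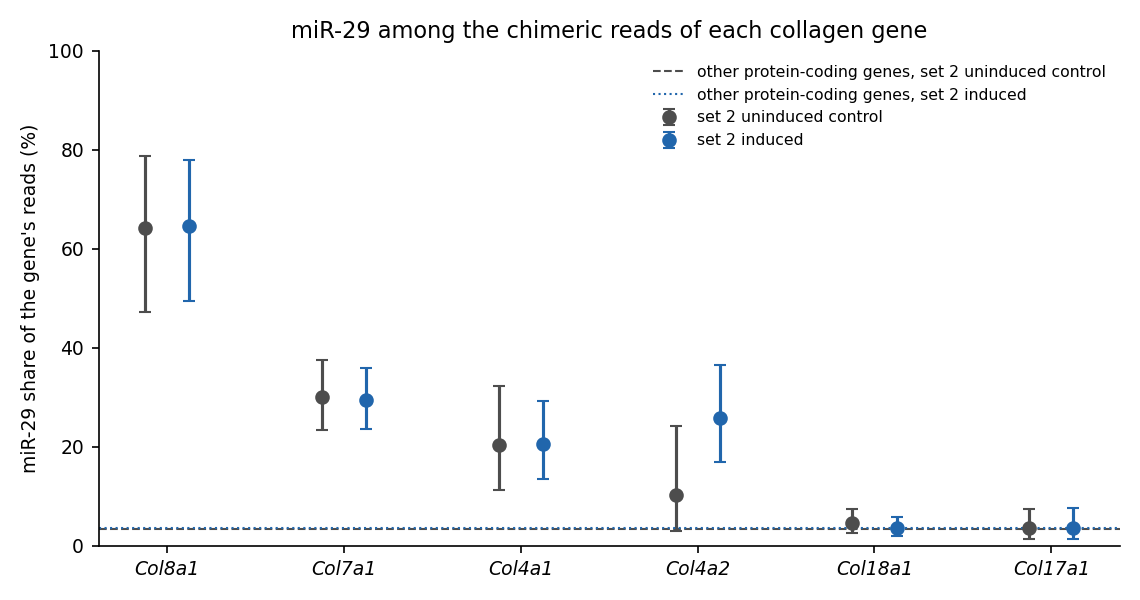
Share of miR-29 reads among the reads of each leading collagen gene (vertical axis, percent) in the uninduced and induced pools of set 2; points are shares, bars the 95% Clopper-Pearson interval, and the horizontal lines the share on all other protein-coding genes, 3.41% and 3.48%. Col8a1, Col7a1 and Col4a1 lie above the lines with their intervals in both pools, whereas the intervals of Col18a1 and Col17a1 include them.

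Dividing each gene by miRNA separated differences that the gene sums merge. On Col8a1, miR-29 had 25 reads in the uninduced control and 4 in set 2 DKO (0.239, 0.0605 to 0.693), and reads of all other miRNAs numbered 14 and 28 (2.99, 1.52 to 6.15). These went opposite ways, so the sum of Col8a1 showed neither. On Col7a1 both parts were lower in set 2 DKO, miR-29 with 5 reads against 52 (0.144, 0.0448 to 0.358) and the rest with 21 against 121 (0.260, 0.155 to 0.415). On Col4a1, miR-29 had 4 reads against 13 (0.460, 0.109 to 1.49) and the rest 39 against 51 (1.14, 0.734 to 1.77).

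Col17a1 was met above all by the miR-17 seed family, with 215 of its 695 reads, and by miR-466c-3p, with 52. The family held 8.01% of all collagen reads in the uninduced control against 3.50% on other protein-coding genes, and 10.5% against 2.50% in the set 1 control. Most of the family's collagen reads lay on Col17a1 itself, 61 of 70 in the uninduced control and 40 of 46 in the set 1 control. In set 2 DKO the miR-17 seed reads of Col17a1 were at 1.35 times the uninduced control (0.919 to 1.97) and all its other reads at 2.53 times (1.99 to 3.23). Among these, miR-27 had 16 reads against 2 (12.0, 2.81 to 107) and miR-24 had 14 against 2 (10.5, 2.40 to 94.9). On other protein-coding genes, too, both took a larger part in set 2 DKO, miR-27 with 10.9% against 5.25% and miR-24 with 3.42% against 1.71%. In the induced pool the miR-17 seed reads were at 0.590 times (0.395 to 0.875).

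By contrast, miR-31 and miR-21 took a smaller part of collagen reads than of other reads in the uninduced control and in set 2 DKO. In the first of these miR-31 held 7.67% of collagen reads against 12.0% on other protein-coding genes, and miR-21 3.20% against 6.13%. miR-31 gave 239 collagen reads on 16 genes over all pools and miR-21 gave 81 on 15 genes. In the induced pool the ratio was 0.892 (0.739 to 1.07) for miR-31 and 0.547 (0.383 to 0.757) for miR-21. In set 1 DKO miR-31 was at 9.40% against 5.51%, on 11 reads.

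Col18a1 was met by many families, the largest of them besides the 9 set 1 names being miR-31 with 101 reads, miR-27 with 69 and let-7 with 64. In set 2 DKO its miR-31 reads were at 0.280 times the uninduced control (6 against 32; 0.0958 to 0.680), and miR-125 had 1 read against 26. Its miR-27 reads did not differ beyond counting error (0.952, 0.450 to 1.95). These miRNAs also differed on other protein-coding genes between set 2 DKO and the uninduced control. There miR-31 held 8.32% against 12.0% of reads, miR-125 3.29% against 5.68% and miR-27 10.9% against 5.25%. On Col4a2, let-7 led with 53 of 187 reads, 28.3%.

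Reads of the miR-200 family itself were few on collagens: 8 in the set 1 control, 0 in set 1 DKO, 49 in the uninduced control, 1 in set 2 DKO and 61 in the induced pool. As part of collagen reads they were 5.61% (4.18 to 7.34) in the uninduced control against 7.41% on other protein-coding genes, and 5.44% (4.19 to 6.94) against 9.96% in the induced pool. The 0 of 117 reads in set 1 DKO allow a part of up to 3.10%. From the uninduced to the induced pool the share on collagens was at 0.933 times (0.630 to 1.39) and that on other protein-coding genes at 1.37 times (1.34 to 1.40); the first interval includes the second value. miR-141 gave 52 of the family's reads, miR-200c 33, miR-200b 18, miR-429 10 and miR-200a 6. Col18a1 received 43 of them.

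Along the genes, collagen reads lay near the 3′ end more often than reads on other genes. Of 2956 reads on the strand of a collagen gene, 43.8% (42.0 to 45.6) had their midpoint within 2000 bases of the annotated 3′ end, against 22.4% on other protein-coding genes. For miR-29 it was 83.0% (78.5 to 86.9) of 329 reads on collagens against 28.9% elsewhere, and for the miR-17 seed family 88.5% (83.8 to 92.2) of 243 against 28.1%. For miR-31 it was 15.9% (11.5 to 21.3) against 20.6%. The miR-17 seed value rests mostly on Col17a1, where 1 site near the gene end held 209 of the family's 245 collagen reads. Exons and untranslated regions were not analysed here, so these are distances within the whole gene.

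The genes differed in this respect: 76.4% of the reads of Col17a1 lay within 2000 bases of the end, 68.9% of Col8a1, 67.9% of Col7a1, 57.4% of Col4a1, 56.1% of Col4a2 and 7.64% of Col18a1. The miR-29 reads lay there in 123 of 125 cases on Col7a1, 29 of 29 on Col4a2, 60 of 63 on Col8a1 and 35 of 41 on Col4a1. On Col17a1, however, it was 6 of 17, and on Col18a1 4 of 31. The 2 collagens with a low miR-29 part therefore also had most of their miR-29 reads away from the gene end.

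**Figure D4:**
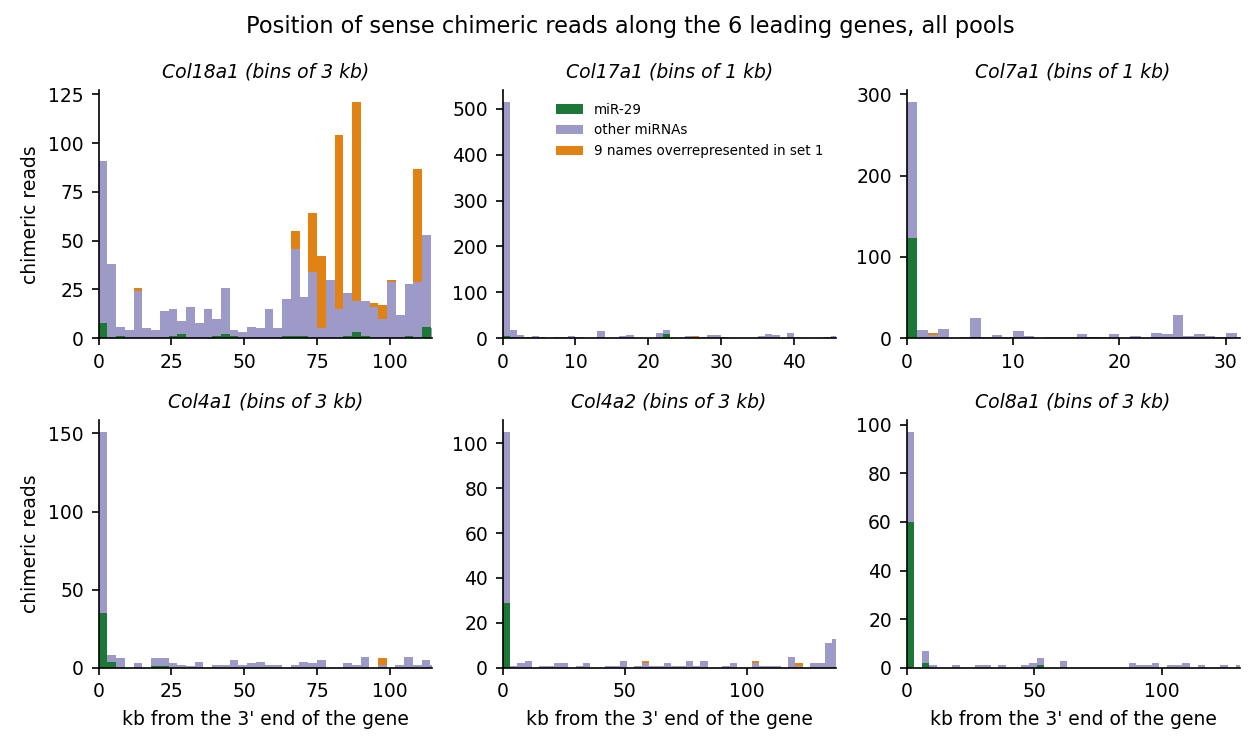
Chimeric reads of all pools (vertical axis, read number) by distance of the target midpoint from the 3′ end of the gene (horizontal axis, kb) for the 6 leading genes, stacked by miRNA, in bins of the width given above each panel. The highest bar lies at the gene end in every gene shown but Col18a1. Reads of Col18a1 gather at its end to a lesser degree, spread over the gene and include the peaks of names frequent in set 1.

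Overlapping target parts on 1 strand were joined into 841 sites, of which 556 had a single read. The 36 sites with at least 10 reads held 1709 reads, 56.4% of the total, all of them on the strand of the gene. Of the 36, 15 lay within 2000 bases of the gene end and 10 were met in all 5 pools. Col18a1 had 20 of them, Col7a1 6, Col17a1 4, Col4a1 and Col4a2 2 each, and Col8a1 and Col24a1 1 each.

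The leading site was on Col17a1 at chr19:47646362-47646534, centred 107 bases from the gene end, with 54, 16, 93, 102 and 77 reads in the 5 pools. Of its 342 reads 209 belonged to the miR-17 seed family and 52 to miR-466c-3p. Set 2 DKO was at 1.64 times the uninduced control (1.23 to 2.20) and the induced pool at 0.620 times (0.453 to 0.848). The next site of Col17a1, at chr19:47646728-47647280 and 663 bases from the end, had 9, 9, 33, 81 and 39 reads and was met by 52 miRNAs, led by miR-297a-5p with 32 reads and miR-24-3p with 22. Here set 2 DKO was at 3.67 times (2.42 to 5.68), while set 1, with only 18 reads, was under the minimum for a comparison. The induced pool did not differ beyond counting error (0.886, 0.543 to 1.45). Both of these sites of Col17a1 were thus higher in set 2 DKO. A smaller site of 17 reads, at chr19:47668571-47668711, had 8 reads in the uninduced control and 3 in set 2 DKO.

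On Col7a1, Col8a1, Col4a1 and Col4a2 most miR-29 reads fell on 1 site. On Col7a1 the site at chr9:108984498-108984873, 190 bases from the end, had 262 reads, 114 of them miR-29, with 9, 1, 104, 14 and 134 reads by pool (set 2 DKO 0.201, 0.106 to 0.353). On Col8a1 the site at chr16:57624609-57624765, 431 bases from the end, had 83 reads, 60 of them miR-29, with 7, 1, 28, 7 and 40 by pool (0.374, 0.138 to 0.876). On Col4a1 the site at chr8:11199618-11199860, 1316 bases from the end, had 29 miR-29 reads of 95, beside 17 of let-7 and 12 of miR-31. On Col4a2 the site at chr8:11448376-11448643, 778 bases from the end, had 48 let-7 reads and 22 miR-29 reads of 88. Col4a5 had a small site of 6 reads, all miR-29, at chrX:141688235-141688278. The leading sites of Col4a5, Col20a1 and Col5a1 had 7, 6 and 8 reads.

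Sites far inside Col18a1 differed in make-up, and the largest of them held mostly names frequent in set 1. The largest, at chr10:77141029-77141066 and 88869 bases from the gene end, had 100 reads, all of miR-3473b and on 8 distinct combinations of position, strand and miRNA, with 45, 11, 25, 1 and 18 by pool. Others at chr10:77162809-77162908 (58 of 59 reads miR-3470b), chr10:77135482-77135539 (51 of 51 miR-3473d) and chr10:77135703-77135779 (38 of 39 miR-3473b) were likewise met by 1 or 2 miRNAs. In all, 9 of the 36 sites had at least 50% of their reads from the 9 names frequent in set 1 (miR-1195, miR-3470a and b, miR-3473b and d, miR-6380, miR-706, miR-709 and miR-7667-5p). These 9 sites lay 67436 to 110680 bases from the gene end and were met by 1 to 3 miRNAs. The 27 others were met by 1 to 52, with a median of 8. Sites of Col18a1 met by few miRNAs were thus not limited to the 9 names. All 16 reads at chr10:77121091-77121142 were miR-8106, and all 11 at chr10:77145624-77145677 were miR-3471. The 9 names gave 44.6% of collagen reads in the set 1 control against 33.3% on other protein-coding genes, and 6.98% against 2.66% in the uninduced control. Most of these collagen reads lay on Col18a1, 171 of 195 in the set 1 control and 53 of 61 in the uninduced control. In set 2 DKO the names gave 3.74% against 3.14%, a ratio of 1.19 (0.705 to 1.88). None of the 380 sense reads of these names on collagens lay within 2000 bases of the gene end, which allows up to 0.966%. Elsewhere 1.66% did. A miR-31 site of Col18a1 at chr10:77057798-77057915, 5678 bases from the end, had 30 miR-31 reads of 31, with 14 in the uninduced control, 1 in set 2 DKO and 16 in the induced pool.

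Genes that act with collagens were read by the same rule. Of the enzymes and helpers that make and crosslink collagen, 25 of 27 had reads, 6 were measured in set 2 DKO and 2 of these were lower and 1 higher, with a median ratio of 0.667; of all 4372 genes 11.2% were lower and 9.58% higher, with a median of 1.02. Serpinh1, the collagen chaperone HSP47, had 42 reads in the uninduced control, 7 in set 2 DKO (0.249, 0.0945 to 0.560) and 108 in the induced pool (1.93, 1.34 to 2.82). Plod2, a lysyl hydroxylase, had 149 and 43 (0.432, 0.300 to 0.610), and P3h2, a prolyl 3-hydroxylase, had 15 and 33 (3.29, 1.74 to 6.52). Mia3, which packs procollagen for export, had 93 and 40 (0.643, 0.433 to 0.941). In set 1 DKO, Plod2 was at 1.40 times control (0.530 to 3.35) and Mia3 at 1.86 times (0.894 to 3.72). They were the 2 genes of the list measured there, with a median of 1.63 against 0.883 for all genes. Neither passed 2-fold, where 25.9% of all 2126 genes did.

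Of 9 other basement membrane genes measured in set 2 DKO, 5 were lower and 1 was higher, with a median of 0.475, where 11.2% of all genes were lower and 9.58% higher. Among the lower ones were Hspg2, Agrn, Lama5 and Lamb1, and the higher one was Fras1, with 12 and 42 reads (5.23, 2.71 to 10.9). Lama3, a laminin alpha chain of the epidermal basement membrane, had 157 and 98 reads (0.934, 0.718 to 1.21). Lamc1, the common laminin gamma chain, had 88 and 32 (0.544, 0.351 to 0.824). In set 1 DKO, 2 of 7 were lower and none higher, with a median of 0.808, where 17.6% of all 2126 genes were lower and 8.23% higher and their median was 0.883. Among collagen receptors Itga2 had 57 reads in the uninduced control and 3 in set 2 DKO (0.0787, 0.0158 to 0.242), and Itgb1, its partner chain, had 206 and 108 (0.784, 0.615 to 0.994). Ddr1, a receptor tyrosine kinase for collagen, had 18 and 13 (1.08, 0.487 to 2.33). Mmp14, a membrane-bound collagenase and the only one of the 6 enzymes of that list measured, had 31 and 14 (0.675, 0.332 to 1.31). In the induced pool none of the 7 making, 9 basement membrane and 3 receptor genes measured passed 2-fold, where 5.24% of all genes did.

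Commonly cited targets of miR-29 outside the collagens had 33.7% miR-29 reads, led by Sparc, a collagen-binding matrix protein, with 74.0% of 1574 reads. Sparc had 600 reads in the uninduced control and 42 in set 2 DKO (0.105, 0.0747 to 0.143), and 3 of the 10 genes of that list measured there were lower and 1 higher, where 11.2% of all genes were lower and 9.58% higher. Hspg2, one of the lower ones, and Lamc1 are also among the basement membrane genes above. In set 1 DKO, 3 of 10 genes measured were lower and 1 higher, where 17.6% of all genes were lower and 8.23% higher. The medians there were 1.03 for the list and 0.883 for all genes. Tet3 and Tet2, enzymes that oxidise methylated cytosine, had 13.8% and 19.3% miR-29 reads. The miR-29 part was 6.83% on the other basement membrane genes, 4.60% on the making and crosslinking genes and 1.97% on the receptors. The parts on Col8a1, Col7a1 and Col4a1 lay between those of Sparc and of these 3 lists.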

How the data were processed

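The authors' deposited files are lists of positions (another unit than a count): per the file headers, an entry is 1 chimeric read with the mm10 start, end and strand of its target, a barcode of 4 bases and a miRNA name. The tools cutadapt, Novoalign and bedtools and the mm10 build are named in the submitters' processing notes; versions and settings are not given in the sources used here. The 18 libraries come as 5 pools without library names. Reads were assigned by target midpoint to RefSeq gene spans with Python 3.11.15, pandas 2.3.3 and numpy 2.4.6. Intervals are Clopper-Pearson for shares and conditional exact for ratios (scipy 1.17.1). They cover counting error only and take each read as independent, which amplified copies are not, so they can be too narrow. The 437 collagen reads of the set 1 control lay on 286 distinct combinations of position, strand and miRNA. The 874 of the uninduced control lay on 765. The scripts were tested on simulated data. Names frequent in set 1 are those with at least 1% of set 1 control reads and at least 5 times their uninduced share.

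The members, gene lists, comparisons and rules were chosen with earlier results of these data known. Named in full were the 10 collagens with the highest mean share, the leading gene of each structural group with at least 5 reads, the miR-29 and miR-200 members, 10 other miRNAs, the 10 largest sites and the leading site of each named gene, and the leading 3 genes of other lists; the rest were named after their values were seen. The values of 1 listed gene are not reported here. Alternatives were distinct positions, reads also found in another pool of the same sequencing lane left out (each set is 1 lane, by the deposited read names), other denominators, read minimums and site overlaps, sense reads, and leading genes or miR-29 left out. Added after the data were seen were leaving out the 9 names or marked read names, a window of 5000 bases, leaving out Col17a1 or Col7a1, and 2 of these alternatives for sites and miR-29 parts.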

Additional observations from a re-analysis of the deposited data

How the results depend on the processing

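Without Col18a1 the ratio of the collagen share was 1.12 in place of 0.890 in set 1 DKO and 1.09 in place of 0.823 in set 2 DKO, both on the other side of 1. The set 2 DKO value was 0.511 without Col17a1 and 0.971 without Col7a1, which were chosen after seeing the data. Without Col7a1 the ratio of the miR-29 part on collagens to that on other protein-coding genes was 3.05 in place of 4.19 in the uninduced control and 3.57 in place of 4.57 in the induced pool. In set 1 DKO, in place of 0 collagens at least 2-fold lower, there was 1 with a read minimum of 10 (Col8a1, 1 read against 12, 0.277), and 1 when reads also found in another pool of the same lane were left out (Col4a2, 3 against 28, 0.409). The other 82 values of these results lay within the counting interval of the reported value, or within 1.5 times a reported count. Of the values of single genes, sites and windows, 190 lay within the interval and 2 did not: Col8a1 in set 2 DKO without miR-29 reads (2.92 in place of 1.23) and collagen reads near the gene end with a window of 5000 bases (46.1% in place of 43.8%). No paired analysis was possible because the files pool the libraries of each group; for the same reason leaving out replicates was not run. Depth limits set 1 DKO most, where 3 reads are 0.00616% of the pool.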
